A study of Mus musculus with 4 samples.

Results

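The comparison described here sets the Sca1+ fraction of Comma D beta cells against the Sca1- fraction after 1 day of doxycycline (dox). It rests on 2 of the 4 arrays of the study, 1 for each dox-treated fraction, which were chosen by their labels. Comma D beta is a mouse mammary epithelial cell line. All cells spent the night in medium holding 2% serum, 10 ng/ml of EGF and 5 ug/ml of insulin. The dox groups, Dox+Sca1+ and Dox+Sca1-, also received dox at 100 ng/ml, and the groups without dox, Sca1+ and Sca1-, did not. From each condition equal numbers of Sca1+ and Sca1- cells were sorted after antibody staining, and labelled RNA from each fraction was hybridised to 1 Affymetrix 3' expression array. The pair of fractions without dox is used here only to show which fraction differences remained, vanished or appeared under dox.

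The study's title names Bcl11b, a zinc finger transcription factor, and doxycycline is widely used to switch engineered genes on or off. The labels do not state which gene dox acts on in this line. Each group had 1 array and nothing in the labels says whether the fractions came from separate cultures, so no difference has a replicate check and no p-value is given. Genes were called by size alone, at a difference of 1 or more on the log2 scale, which is 2-fold. Because each array read a bulk sample, fewer cells of a type and less RNA per cell cannot be told apart. The gene of Sca1 itself was not analysed here, so the sort was not checked on its own marker.

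Sca1 is a small surface protein of the Ly6 family, held in the membrane by a lipid anchor, and it is used in the mammary gland to separate epithelial cell populations. The mammary epithelium has an inner luminal layer, marked by simple keratins and claudins, and an outer basal layer, marked by Krt5, Krt14 and the p63 factor encoded by Trp63. Dividing cells make the RNAs of DNA replication and of mitosis in separate waves. Promoters of replication genes often hold E2F sites, and promoters of mitotic genes often hold the cell cycle homology region and CCAAT boxes, which are bound by the DREAM and MuvB complexes and by NF-Y.

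The promoters of mitotic and replication genes are shown first because the mitotic lists had the largest median differences and replication genes differed in the same direction. The first group holds the 5 mitotic genes with the largest difference under dox among those that were at least 2-fold higher in Sca1+ cells in both pairs, had 1 promoter window in the RefSeq table of build GRCm38.p6, and held both motifs. Each run is the 250 bases before the annotated start, 5′ to 3′ along the gene's strand. Capitals mark TTTGAA or its reverse complement TTCAAA, and CCAAT or its reverse complement ATTGG.
Depdc1a (chr3:159495183-159495432, plus strand): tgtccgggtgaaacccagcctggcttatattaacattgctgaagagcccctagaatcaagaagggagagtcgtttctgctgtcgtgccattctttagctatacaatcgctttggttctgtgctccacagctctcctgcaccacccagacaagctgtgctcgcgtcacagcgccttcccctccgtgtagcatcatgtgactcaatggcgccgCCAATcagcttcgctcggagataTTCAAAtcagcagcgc
Ncapg (chr5:45669675-45669924, plus strand): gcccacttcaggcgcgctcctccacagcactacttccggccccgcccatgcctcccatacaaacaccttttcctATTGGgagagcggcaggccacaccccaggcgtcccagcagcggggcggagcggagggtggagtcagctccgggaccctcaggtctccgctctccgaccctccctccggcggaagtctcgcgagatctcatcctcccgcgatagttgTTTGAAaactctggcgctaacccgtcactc
Cdk1 (chr10:69352913-69353162, minus strand): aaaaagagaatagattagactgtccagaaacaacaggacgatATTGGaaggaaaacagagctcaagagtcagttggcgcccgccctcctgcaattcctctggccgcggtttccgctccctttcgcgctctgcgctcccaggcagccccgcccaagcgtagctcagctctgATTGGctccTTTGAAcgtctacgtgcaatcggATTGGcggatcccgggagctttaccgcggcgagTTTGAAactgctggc
Ube2c (chr2:164769679-164769928, plus strand): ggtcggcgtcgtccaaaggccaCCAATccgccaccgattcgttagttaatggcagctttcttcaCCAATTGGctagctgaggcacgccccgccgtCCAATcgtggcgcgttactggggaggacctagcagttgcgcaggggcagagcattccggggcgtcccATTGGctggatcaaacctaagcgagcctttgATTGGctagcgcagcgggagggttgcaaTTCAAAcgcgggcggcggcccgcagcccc
Kif11 (chr19:37376132-37376381, plus strand): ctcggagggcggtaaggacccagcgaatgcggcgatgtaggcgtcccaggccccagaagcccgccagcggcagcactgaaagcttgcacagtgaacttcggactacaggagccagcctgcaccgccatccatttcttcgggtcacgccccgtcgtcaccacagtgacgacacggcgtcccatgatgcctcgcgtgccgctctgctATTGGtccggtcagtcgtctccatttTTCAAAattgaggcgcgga

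In each of the 5 windows a TTTGAA match began no more than 30 bases before the start, and in Cdk1 a further match lay 71 bases before it. The 5 were drawn from 15 genes. Of those not printed, Cdc20, Top2a, Espl1, Cenpn and Ckap2l also had a match beginning no more than 30 bases before the start. The only match lay farther off in Fam83d (50 bases), Arhgap11a (99), Ckap2 (101), Ncapd2 (123) and Ccnb2 (167). CCAAT matched 6 times in Ube2c, where a pair of matches on opposite strands overlaps, and 3 times in Cdk1. Across the mitotic lists, 76 of 93 genes matched the RefSeq table, with 83 windows, of which 36.1% held TTTGAA on either strand, 66.3% held CCAAT and 28.9% held both. Over all 32851 windows of this length the shares were 16.0%, 33.8% and 5.55%, and over the 12651 windows of genes analysed here they were 10.6%, 35.0% and 3.83%. Among all genes at least 2-fold higher in Sca1+ cells under dox, 16.0% of 293 windows held both. These genes include 77 of the mitotic lists, so this share is not separate from the mitotic one. Of 367 windows of the genes at least 2-fold lower, 1.91% held both. A match is a run of letters and was not tested as a binding site.

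The second group holds the replication genes with the largest difference under dox among those that were at least 2-fold higher and had 1 window with an E2F-type match. That motif was added after the data were seen. It was read as TTTCCCGC, TTTGGCGC, TTTCGCGC or TTTGCCGC on either strand, which capitals mark, and in Mcm5 and in Mcm6 a pair of matches overlaps.
Mcm5 (chr8:75109259-75109508, plus strand): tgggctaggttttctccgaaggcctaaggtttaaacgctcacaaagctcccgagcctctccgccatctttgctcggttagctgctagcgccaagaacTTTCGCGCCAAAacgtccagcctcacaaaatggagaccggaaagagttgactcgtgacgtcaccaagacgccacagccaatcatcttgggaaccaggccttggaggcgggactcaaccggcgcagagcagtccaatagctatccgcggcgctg
Pola1 (chrX:93632156-93632405, minus strand): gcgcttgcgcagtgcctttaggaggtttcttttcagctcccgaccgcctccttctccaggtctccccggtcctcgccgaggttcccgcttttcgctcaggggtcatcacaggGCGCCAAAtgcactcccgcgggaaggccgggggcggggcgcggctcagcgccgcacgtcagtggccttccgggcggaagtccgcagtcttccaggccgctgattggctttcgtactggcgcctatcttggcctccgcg
Mcm6 (chr1:128359706-128359955, minus strand): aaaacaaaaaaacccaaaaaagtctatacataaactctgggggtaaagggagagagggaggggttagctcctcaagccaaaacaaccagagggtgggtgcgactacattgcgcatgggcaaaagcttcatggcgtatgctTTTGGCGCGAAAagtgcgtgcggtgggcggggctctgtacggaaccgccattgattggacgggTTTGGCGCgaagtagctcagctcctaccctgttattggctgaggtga

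An E2F-type match stood in 21.1% of the 38 replication windows, 9.64% of the mitotic windows and 9.68% of 31 windows of the luminal list. It stood in 3.23% of the windows of genes analysed and in 1.86% of all windows. TTTGAA stood in 10.5% of the replication windows, close to its 10.6% share over the genes analysed. CCAAT stood in 57.9% of the replication windows and both motifs in 7.89%, against 35.0% and 3.83% over the genes analysed. The high CCAAT share was therefore not particular to the mitotic lists.

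Under dox, cell division genes were higher in Sca1+ cells, and some luminal, acute-phase and transport genes were lower. Of 12264 genes analysed, 309 (2.52%) were at least 2-fold higher in Sca1+ cells and 366 (2.98%) at least 2-fold lower, so 5.5% passed the size rule in all. The excess of lower genes depended on scaling, since centring on bright probe sets gave 338 higher and 316 lower and quantile normalization gave 337 and 315. Without dox the counts were 376 (3.07%) and 408 (3.33%). Mitotic, replication and repair lists held 112 of the 309 higher genes and 0 of the 366 lower ones. Of the 12264 genes analysed, these lists held 88, 38 and 15 in turn. At 4-fold or more, which is 2 on the log2 scale, 92 genes were higher and 39 lower, and at 8-fold or more, 12 were higher and 6 lower. Many calls lay close to the size rule, with 75 of the higher and 163 of the lower genes between 1 and 1.2 on the log2 scale in size. Just outside the rule, between 0.8 and 1, lay another 168 higher and 233 lower genes.

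The middle of the distribution was narrow. Over all genes analysed the log2 difference under dox had a median of -0.03, with quartiles at -0.27 and 0.16. Its extremes were Lcn2 at -4.86 and Depdc1a at 3.69. Dim genes passed the size rule more often than bright ones. Of 2789 genes with a mean linear level under 32, 10.1% differed 2-fold, while 1.17% of the 2569 genes averaging at least 400 did. Of the called genes, 54 higher and 66 lower had 1 dox array at the floor of the deposited values, a linear level of 10 or 3.32 on the log2 scale, and their differences are lower bounds, written as at least. Genes with more than 1 bright probe set gave a check within the array. Another probe set counted if it reached a linear level of 100 on a dox array and was above the floor on both. Only 37 of the 309 higher and 29 of the 366 lower genes had one, and dimmer probe sets were left out. With the mean of each gene's probe sets, 219 genes were higher and 232 lower under dox. All 41 other bright probe sets of the higher genes pointed the same way, 35 of them 2-fold, and so did all 46 of the lower genes, 37 of them 2-fold.

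The fraction differences seen without dox were kept in part. In the same direction and at least 2-fold in both pairs, 132 genes remained higher in Sca1+ cells (1.08% of genes analysed) and 108 remained lower (0.881%). These are 42.7% of the genes higher under dox and 35.1% of those higher without it, and 29.5% and 26.5% for the lower genes. A difference appeared in 209 genes, which were 2-fold different under dox and under 1.41-fold without it. Of these, 51 were higher (0.416%) and 158 lower (1.29%). By the reverse rule a difference vanished under dox in 262 genes, of which 114 had been higher (0.93%) and 148 lower (1.21%). With each array centred on the median of all probe sets these counts were 246 and 88. A further 90 higher (0.734%) and 77 lower (0.628%) genes under dox differed the same way without it by between 1.41-fold and 2-fold. The reverse held for 78 higher (0.636%) and 100 lower (0.815%) genes that were 2-fold different without dox. Another 31 higher (0.253%) and 9 lower (0.0734%) genes could not be read without dox because both arrays were at the floor, and 41 higher (0.334%) and 37 lower (0.302%) genes could not be read under dox. In 5 genes the pairs differed 2-fold in opposite directions, 1 higher (0.00815%) and 4 lower (0.0326%) in Sca1+ cells under dox. Across the 12264 genes the difference under dox and the one without it, which share no array, had a Pearson correlation of 0.47 and a Spearman rank correlation of 0.38. Genes are not independent replicates, and this is a description.

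**Figure D1:**
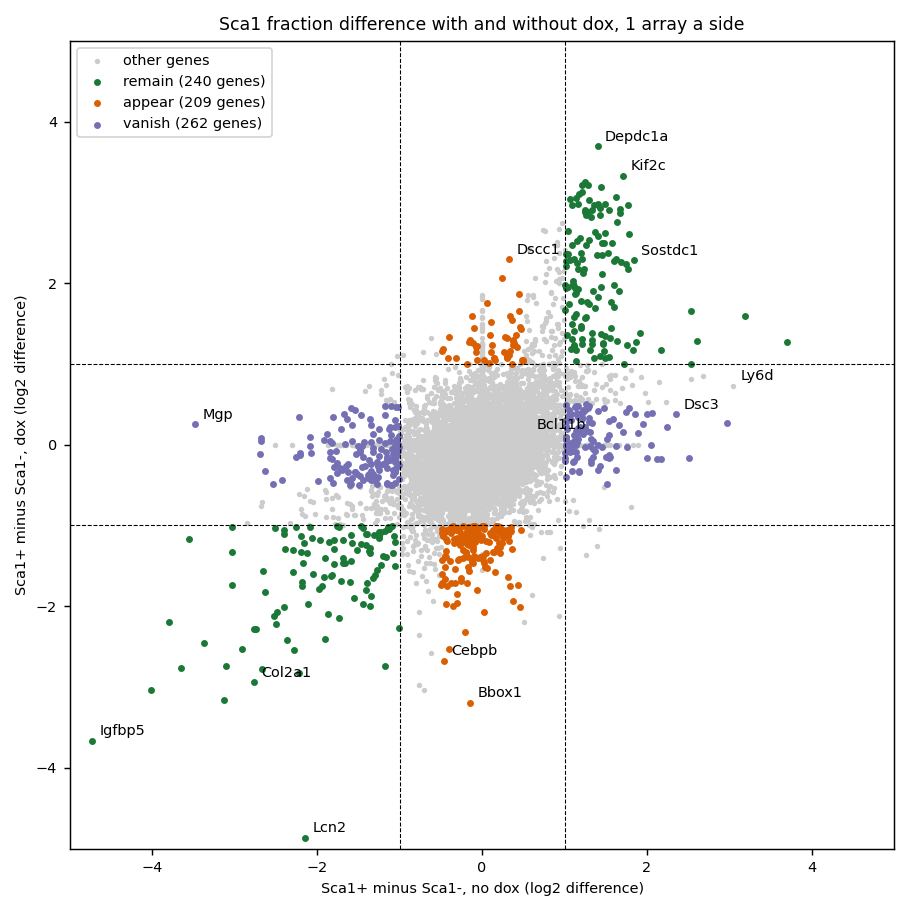
Each point is 1 gene, with the Sca1+ minus Sca1- log2 difference without dox on the horizontal axis and under dox on the vertical axis, 1 array a side. Dashed lines mark 2-fold; green genes remained (240), orange genes appeared (209) and purple genes vanished (262) under dox. Depdc1a stands at 3.69 under dox and 1.40 without it, and Mgp at 0.25 and -3.48.

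Mitotic genes had the largest list medians under dox. Of 88 genes analysed on the 4 mitotic lists, 77 were at least 2-fold higher in Sca1+ cells under dox (2.52% over all genes), 0 were lower and 11 were within 2-fold. Without dox 61 were higher (3.07% over all genes) and 0 lower. The list's median difference was 2.35 on the log2 scale, or 5.10-fold, against 1.21 without dox, and -0.03 over all genes under dox. In 79 of the 88 genes the difference was larger under dox. The list's median level on the log2 scale was 7.71 in Sca1+ cells and 5.47 in Sca1- cells under dox, and 8.68 and 7.35 without it. The lists were chosen with earlier results of these data known and are not independent evidence.

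The largest difference among them was in Depdc1a, a gene of mitotic progression. Depdc1a read 8.14 in Sca1+ cells and 4.45 in Sca1- cells under dox and 8.59 and 7.19 without it, on the log2 scale. The Sca1+ cells were 12.9-fold higher under dox and 2.64-fold higher without it. Its level was close to the untreated one in the Sca1+ fraction, while the dox-treated Sca1- array stood apart at the bottom. Cdk1, the kinase that drives entry into mitosis, read 9.00 and 5.96 under dox and 10.33 and 9.27 without it, an 8.22-fold and a 2.09-fold difference. Both dox arrays were below both arrays without dox, and the Sca1- array was again the lowest.

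All 11 mitotic kinesins analysed, the motor proteins of the spindle, were at least 2-fold higher under dox, and 10 were so without it. Kif2c, which takes microtubule ends apart at centromeres, read 8.87 in Sca1+ and 5.55 in Sca1- cells under dox and 9.25 and 7.54 without it. It was 10.0-fold higher under dox and 3.27-fold higher without it. Kif11, which pushes spindle poles apart, read 7.40 and 4.43 under dox and 8.79 and 7.39 without it. Kif20a, a motor of the central spindle, was 7.32-fold higher under dox and 3.18-fold higher without it. Kifc1, a minus-end motor that gathers spindle poles, read 6.01 and 3.83 under dox, a 4.52-fold difference, after 7.74 and 5.97 without it. In each of these 4 motors the dox-treated Sca1- array was the lowest of the 4 arrays.

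Among kinetochore and spindle checkpoint genes, which join chromosomes to microtubules and delay anaphase until that is done, 20 of 24 were higher under dox and 15 without it. The medians were 2.42 and 1.22. Bub1b, the checkpoint protein BubR1, read 7.26 and 4.01 under dox, 9.49-fold higher in Sca1+ cells, and 8.06 and 6.81 without it. The checkpoint kinase Bub1 read 8.42 and 5.20 under dox, a 9.27-fold difference, and 9.49 and 8.28 without it. Spc25, a subunit of the Ndc80 complex, was 9.29-fold higher under dox and 2.43-fold higher without it. The members within 2-fold under dox were Cenpm, Cenpp, Cenpt and Zwint, and Cenpt read 7.42 and 7.41.

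Among mitotic kinases, cyclins and exit genes 22 of 26 were higher under dox and 18 without it. Birc5, the survivin subunit of the chromosomal passenger complex, read 9.77 and 6.67 under dox, 8.62-fold higher in Sca1+ cells, and 10.67 and 9.50 without it. Ube2c, the ubiquitin-conjugating enzyme of the anaphase-promoting complex, read 9.84 and 6.81 under dox and 10.50 and 9.21 without it. The mitotic cyclin gene Ccnb2 was 7.59-fold higher under dox and 2.68-fold higher without it. Mastl, the Greatwall kinase, which holds a phosphatase in check during mitosis, read 6.61 and 4.01 under dox, a 6.07-fold difference, and 7.55 and 5.76 without it. Espl1, the separase that cuts cohesin at anaphase, was 4.71-fold higher under dox and 3.35-fold higher without it. Foxm1, a transcription factor of mitotic genes, did not pass on its brightest probe set, with 5.45 and 5.23 under dox. Its other probe sets with a signal read 4.79 and 5.07 in Sca1+ cells and were at the floor in Sca1- cells, which puts them at least 2.76-fold and 3.36-fold above Sca1- cells.

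Of the spindle, chromosome and midbody genes 25 of 28 were higher under dox and 19 without it, with medians of 2.22 and 1.22. Nusap1, which bundles spindle microtubules, was 8.74-fold higher under dox. Hmmr, a spindle protein, was 8.40-fold higher, and Ncapg, a condensin subunit, 8.29-fold higher. Ckap2, a spindle protein, read 8.40 and 5.44 under dox and 9.61 and 7.85 without it. Some genes were at the floor in Sca1- cells under dox. Among them, Arhgap19, which acts in cell division, was at least 5.80-fold higher under dox, Depdc1b at least 5.64-fold, Ska3, a kinetochore subunit, at least 4.83-fold and the repair gene Fancd2 at least 3.87-fold.

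Replication genes were higher in Sca1+ cells by the size rule mainly under dox. Of 38 genes analysed 22 were at least 2-fold higher under dox and 0 lower (2.52% and 2.98% over all genes). Without dox 1 was higher and 0 lower (3.07% and 3.33% over all genes). With the mean of each gene's probe sets in place of the brightest, the count under dox was 15. The median difference was 1.16 under dox and 0.47 without it. The signed difference was higher under dox in 37 of 38 members. These include Tyms, which was at the floor on both dox arrays and so had no readable difference there. The list's median level was 7.77 in Sca1+ and 6.20 in Sca1- cells under dox, and 8.82 and 8.14 without it, so both dox medians lay below both untreated ones.

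Ccne2, the cyclin E2 of S phase entry, read 7.13 and 4.65 under dox and 8.81 and 7.92 without it, a 5.57-fold and a 1.84-fold difference. Mcm10, which helps start replication forks, was 5.37-fold higher under dox and 1.48-fold without it. Dscc1, a subunit of a clamp loader that acts in sister chromatid cohesion, had the largest dox difference of the 6 genes named for appearing higher. It read 6.61 and 4.32 under dox and 7.78 and 7.45 without it, a 4.92-fold and a 1.26-fold difference. Rrm2, the small subunit of ribonucleotide reductase, read 9.51 and 7.92 under dox and 11.35 and 11.01 without it, 3.01-fold and 1.26-fold higher. Gins1, of the replicative helicase, was 3.14-fold and 1.36-fold higher, and Dna2, a nuclease of replication and repair, 2.90-fold and 1.28-fold. The thymidine kinase gene Tk1 read 7.75 and 5.56 under dox and 10.01 and 9.20 without it. Clspn, which links stalled forks to the checkpoint kinase, was the member that passed in both pairs, 3.67-fold and 2.21-fold higher.

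Of the genes whose promoters are printed above, Mcm5, a subunit of the replicative helicase, read 10.07 and 8.48 under dox and 11.10 and 10.57 without it, 3.02-fold and 1.45-fold higher. Pola1, the catalytic subunit of DNA polymerase alpha, was 2.43-fold higher under dox, and Mcm6 2.16-fold. Members within 2-fold under dox included Pcna, the sliding clamp, at 1.60-fold, and Mcm2 at 1.62-fold. Homologous recombination and Fanconi genes behaved alike in direction, with 13 of 15 higher under dox and 7 without it (2.52% and 3.07% over all genes). Other genes with an appearing difference were Lrr1, a ubiquitin ligase subunit, at 4.17-fold, and Kif22, a chromosome-binding kinesin, at 3.63-fold.

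**Figure D2:**
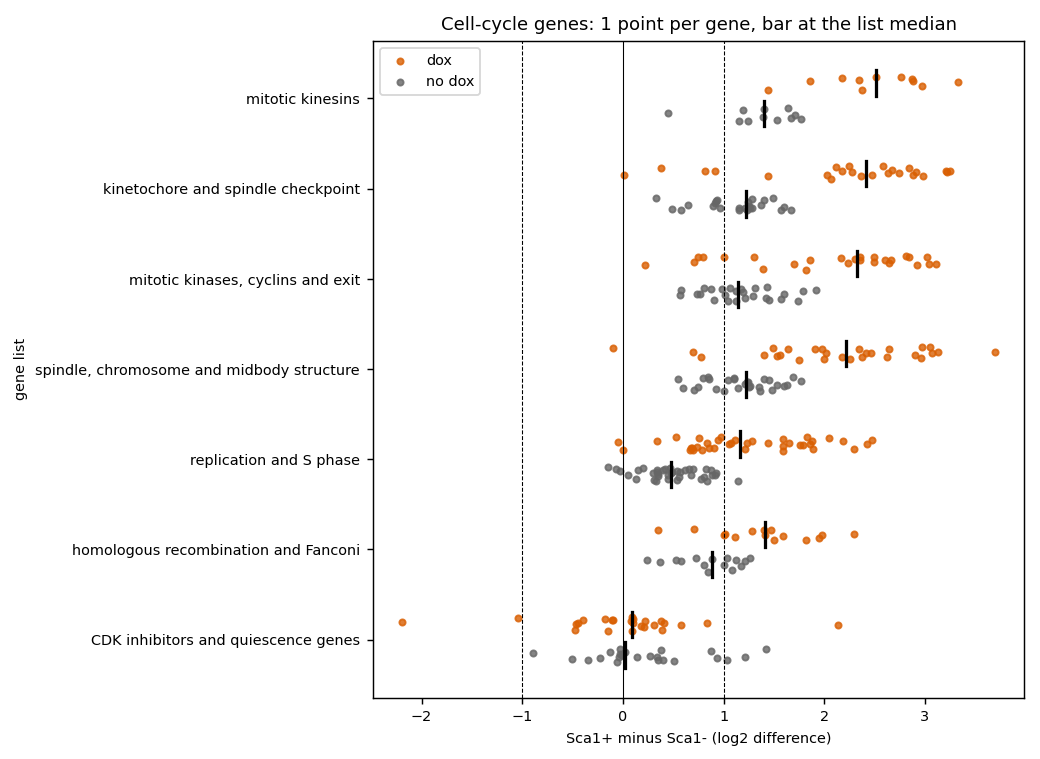
Each point is 1 analysed gene of a list, placed by its Sca1+ minus Sca1- log2 difference under dox (orange) or without it (grey), and the black bar is the list median. The mitotic medians lie between 2.22 and 2.52 under dox and between 1.15 and 1.41 without it, replication moves from 0.47 to 1.16, and the inhibitors stay at 0.09 and 0.02.

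Under dox 22 of the CDK inhibitor and quiescence genes differed by under 2-fold. So did most genes analysed, since 5.5% of all genes passed the size rule. Of 25 analysed, 1 was higher and 2 were lower under dox (2.52% and 2.98% over all genes), with a median of 0.09. Without dox 3 were higher and 0 lower (3.07% and 3.33% over all genes). Cdkn1a, the p21 inhibitor, read 8.86 in Sca1+ and 8.65 in Sca1- cells under dox and 8.74 and 7.87 without it. Cdkn1b, the p27 inhibitor, read 9.13 and 8.73 under dox, and Cdkn2a read 9.96 and 9.77. These inhibitors differed by under 2-fold between the dox-treated fractions. The lower members were Gas6, a ligand of the TAM receptors, and Gas1, a membrane protein linked to growth arrest. Gas6 read 7.16 and 9.35 under dox, 4.57-fold lower in Sca1+ cells, and 6.84 and 6.34 without it. The higher member under dox was Cdkn2c, the p18 inhibitor, at 2.14 on the log2 scale.

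**Figure D3:**
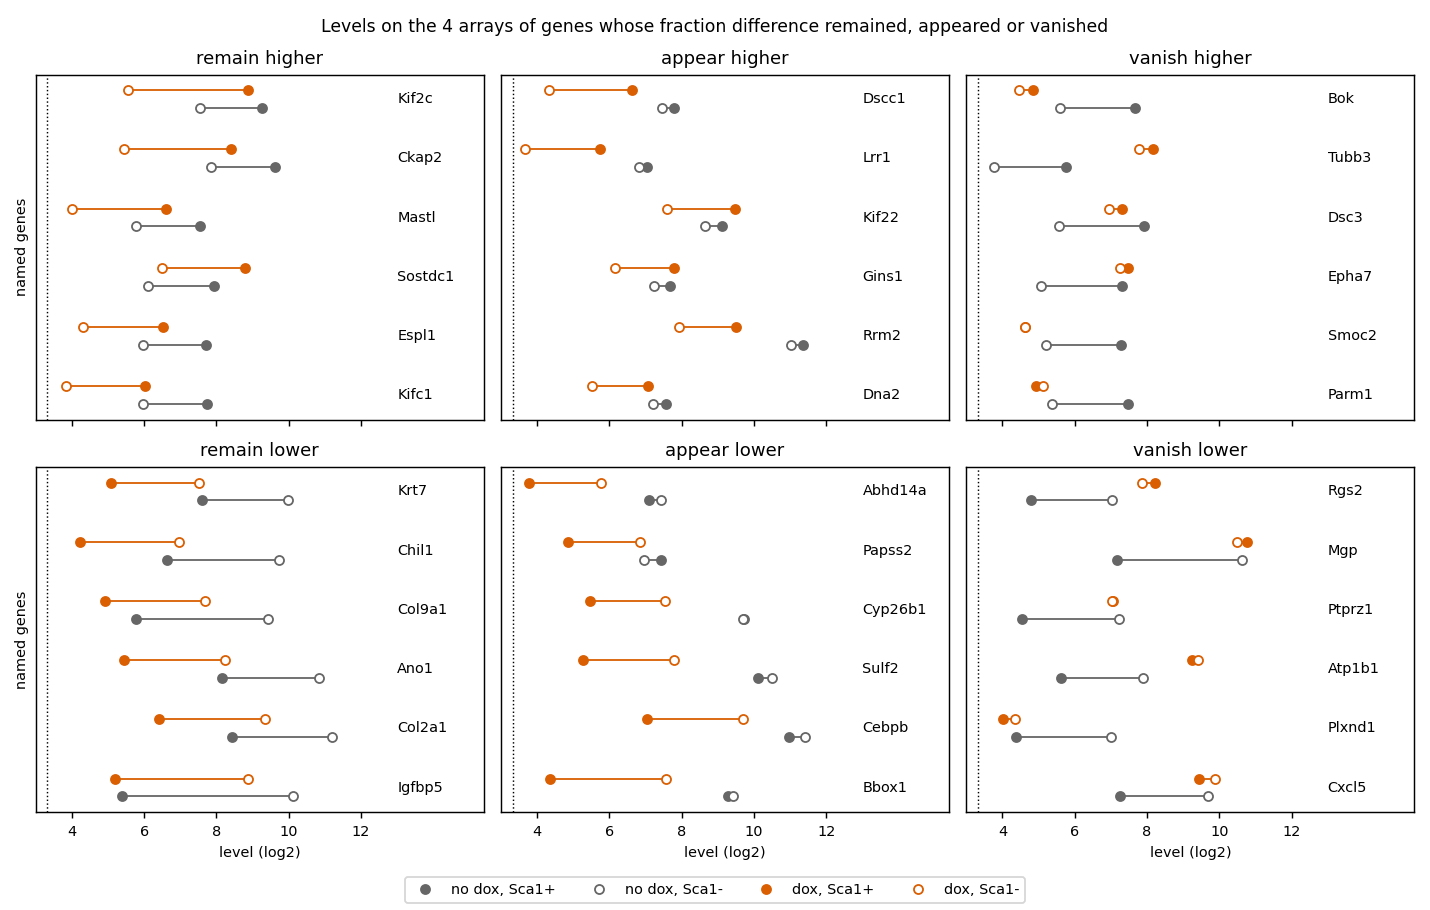
Log2 levels on the 4 arrays are drawn for 6 genes of each class, ranked by the dox difference (appear), the untreated difference (vanish) or the smaller of both (remain), filled circles for Sca1+ and open circles for Sca1-, grey without dox and orange with it; the dotted line is the floor. In the 6 genes that remained higher the open orange circle is the lowest in all but Sostdc1, and in Mgp and Atp1b1 among the vanished lower genes both orange circles lie near or above the higher grey one.

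Of the 6 remaining higher genes ranked first by the smaller of their differences in the pairs, 1 was outside cell division. Sostdc1, a secreted antagonist of BMP and Wnt signals, read 8.78 in Sca1+ and 6.49 in Sca1- cells under dox and 7.94 and 6.09 without it. It was 4.87-fold and 3.59-fold higher, and in each pair the Sca1+ array was the higher one. Trp63, the basal regulator, read 9.70 and 8.63 under dox and 10.14 and 8.77 without it, a 2.11-fold and a 2.57-fold difference. Other basal keratins and factors stayed within 2-fold under dox, with a median of -0.05 after 0.68 without dox. Krt14 read 11.87 and 11.92 under dox, and Krt5 read 7.47 and 7.63. Sprr1b, a cornified envelope protein, read 9.95 and 7.48 under dox, 5.55-fold higher in Sca1+ cells, and without dox it read 4.23 in Sca1+ cells and was at the floor in Sca1- cells.

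Within the Ly6 family, to which Sca1 belongs, 1 of 12 genes analysed was higher under dox (2.52% over all genes) against 4 without it (3.07%). Ly6e read 7.11 and 5.45 under dox and 8.92 and 6.39 without it, 3.16-fold and 5.77-fold higher in Sca1+ cells. Ly6d read 5.32 and 4.59 under dox and 8.34 and 5.29 without it, so an 8.27-fold difference without dox was 1.66-fold under it.

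Luminal genes were among those lower in Sca1+ cells under dox. Of 25 luminal regulators and markers analysed, 8 were at least 2-fold lower under dox (2.98% over all genes) and 0 higher, and all 8 had also been lower without dox, where 13 were lower. With the mean of each gene's probe sets the count lower under dox was 4. The median was -0.21 under dox and -1.02 without it. The simple epithelial keratins Krt7 and Krt8 remained lower. Krt7 read 5.09 in Sca1+ and 7.51 in Sca1- cells under dox and 7.60 and 9.97 without it, 5.35-fold and 5.16-fold lower. Krt8 was 2.75-fold and 3.23-fold lower, and Krt18 1.67-fold and 3.02-fold lower. The difference in Krt7 was of like size in both pairs, on levels that were lower under dox.

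Lcn2, the iron-binding secreted protein lipocalin 2, gave the largest difference of the comparison. It read 5.23 in Sca1+ cells and 10.09 in Sca1- cells under dox and 9.89 and 12.03 without it. Sca1+ cells were 29.1-fold lower under dox and 4.41-fold lower without it. The dox-treated Sca1+ array stood far below the other 3. Cldn7, a tight junction claudin, read 4.82 and 7.22 under dox and 7.62 and 9.52 without it, 5.28-fold and 3.73-fold lower. Elf5, a regulator of the alveolar luminal lineage, was at least 3.25-fold lower under dox and 4.52-fold lower without it, and Aldh1a3, a luminal progenitor enzyme, was lower by 1.47 on the log2 scale under dox. Some luminal differences were smaller under dox, and this smaller size was not tested. Kit, a receptor tyrosine kinase of luminal progenitors, read 6.34 and 7.36 under dox and 5.14 and 7.40 without it, a 2.03-fold and a 4.79-fold difference. Gata3, a luminal transcription factor, was 2.90-fold lower without dox and 1.27-fold under it.

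Among acute-phase and inflammatory genes 6 of 21 were lower under dox and 1 higher (2.98% and 2.52% over all genes), against 7 and 1 without it (3.33% and 3.07%). Besides Lcn2 they included Cp, the copper oxidase ceruloplasmin, which read 7.35 and 10.33 under dox and 11.40 and 12.16 without it. It was 7.89-fold lower under dox and 1.69-fold lower without it. Hp, the haemoglobin scavenger haptoglobin, was at the floor in Sca1+ cells under dox and at 5.85 in Sca1- cells, at least 5.78-fold lower, and 7.54-fold lower without dox. The chemokine gene Cxcl1 read 5.42 and 7.53 under dox and 8.10 and 10.62 without it, 4.34-fold and 5.75-fold lower. Ceacam1, an adhesion molecule, was 4.42-fold lower under dox on its brightest probe set. Its other probe sets above the floor on all arrays were 2.19-fold, 2.31-fold and 1.33-fold lower. Lbp, which binds bacterial lipopolysaccharide, the cytokine gene Lif and the granulocyte growth factor gene Csf3, all chosen after their values were seen, were 4.03-fold, 3.21-fold and 2.48-fold lower under dox and had been lower without it. Some members of the list differed without dox and not under it. The chemokine gene Cxcl5 read 9.45 and 9.88 under dox and 7.26 and 9.68 without it, so its 5.36-fold difference without dox was 1.35-fold under it. Il6, a cytokine gene, read 6.63 and 6.54 under dox and 3.34 and 6.02 without it.

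Ion channels and transporters had 7 of 21 members lower under dox and 0 higher (2.98% and 2.52% over all genes), and 10 lower and 1 higher without it (3.33% and 3.07%). Ano1, a chloride channel, read 5.44 and 8.22 under dox and 8.15 and 10.82 without it, 6.88-fold and 6.37-fold lower. Kcne3, a potassium channel subunit, was at the floor in Sca1+ cells under dox and at 6.48 in Sca1- cells, at least 8.95-fold lower. The peptide transporter gene Slc15a2 was at least 8.19-fold lower under dox and 16.1-fold lower without it. The acetylcholine receptor subunit gene Chrnb1 was at least 5.83-fold lower under dox, and Megf10, an engulfment receptor outside the list, at least 7.11-fold.

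Matrix genes held both remaining and appearing differences. Of 13 cartilage matrix genes and factors 4 were lower under dox (2.98% over all genes) and 3 without it (3.33%). Col2a1, the collagen of cartilage, read 6.40 in Sca1+ and 9.34 in Sca1- cells under dox and 8.43 and 11.20 without it. Col9a1 read 4.92 and 7.69 under dox and 5.77 and 9.41 without it. Chil1, a secreted chitinase-like protein, was 6.70-fold lower under dox and 8.58-fold lower without it. Col9a3 read 6.51 and 8.25 under dox and 10.06 and 9.63 without it, so a 3.33-fold lower value appeared where Sca1+ cells had been 1.36-fold higher. Igfbp5, a secreted binder of insulin-like growth factors, read 5.20 and 8.86 under dox and 5.40 and 10.12 without it, 12.7-fold and 26.5-fold lower. The Sca1+ arrays of Igfbp5 were close to each other, and both Sca1- arrays were far above them.

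The metalloproteinase inhibitors Timp3 and Timp2 passed the size rule under dox and not without it. Timp3 read 9.42 and 11.17 under dox and 11.40 and 11.83 without it, 3.35-fold and 1.34-fold lower in Sca1+ cells. Timp2 read 8.10 and 9.53 under dox and 9.26 and 9.25 without it, 2.69-fold lower under dox and at the same level without it to within 1.01-fold. Of the 14 metalloproteinase and TIMP genes analysed, 3 were lower under dox (2.98% over all genes) and 0 either way without it.

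The 6 genes with the largest appearing difference among the lower ones were on both dox arrays below both untreated ones. Bbox1, the last enzyme of carnitine synthesis, read 4.36 in Sca1+ and 7.56 in Sca1- cells under dox and 9.29 and 9.43 without it, 9.16-fold and 1.10-fold lower. Cebpb, a transcription factor of epithelial differentiation and inflammation, read 7.03 and 9.70 under dox and 10.96 and 11.42 without it, 6.38-fold and 1.38-fold lower. In both genes the dox-treated Sca1+ array was the lowest of the 4. Sulf2, which trims heparan sulfate, read 5.26 and 7.78 under dox and 10.11 and 10.51 without it, but another of its probe sets read 6.43 and 5.94 under dox. Cyp26b1, which degrades retinoic acid, read 5.47 and 7.53 under dox and 9.71 and 9.69 without it, 4.19-fold lower under dox. Papss2, which makes the sulfate donor of proteoglycans, was 4.02-fold lower under dox and 1.37-fold higher without it, and Abhd14a 3.99-fold lower under dox. Other genes chosen after their values were seen had the same order, among them Rdh10, an enzyme of retinoic acid synthesis, at 3.61-fold lower, Slpi, a secreted protease inhibitor, at 2.86-fold, Osmr, the oncostatin M receptor, at 2.85-fold, and the NF-kappa-B subunit gene Nfkb2 at 2.42-fold. Loxl3, a lysyl oxidase, was 8.20-fold lower under dox and 1.63-fold without it.

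Differences that vanished under dox lay at high levels in some genes and at low levels in others. Mgp, matrix Gla protein, an inhibitor of calcification, read 10.75 in Sca1+ and 10.50 in Sca1- cells under dox and 7.16 and 10.64 without it. It was 11.1-fold lower in Sca1+ cells without dox and 1.19-fold higher under it, and the untreated Sca1+ array alone was low. Ptprz1, a receptor phosphatase, read 7.07 and 7.02 under dox and 4.54 and 7.23 without it. The sodium pump subunit gene Atp1b1 read 9.26 and 9.41 under dox and 5.63 and 7.89 without it, and Rgs2, a brake on G protein signals, read 8.21 and 7.87 and 4.80 and 7.02. In these 4 genes both dox arrays were near or above the higher untreated one. Plxnd1, a semaphorin receptor, read 4.01 and 4.33 under dox and 4.37 and 7.01 without it, so there both dox arrays were low.

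Among genes higher in Sca1+ cells by the size rule without dox and not under it were Dsc3 and Epha7. Dsc3, a desmosomal cadherin, read 7.31 and 6.94 under dox and 7.90 and 5.55 without it, 1.30-fold and 5.11-fold higher. Epha7, an ephrin receptor, read 7.47 and 7.24 under dox and 7.30 and 5.06 without it. In Dsc3 and Epha7 the untreated Sca1- array alone was low. Smoc2, a matricellular protein, read 4.63 and 4.64 under dox and 7.27 and 5.22 without it. Tgfbi, a matrix protein chosen after its values were seen, read 5.50 and 5.66 under dox and 11.06 and 9.05 without it. In Smoc2 and Tgfbi both dox arrays were low. Of 15 cholesterol synthesis genes 0 passed the size rule in either pair, against 5.5% of all genes under dox and 6.39% without it. Their median was 0.65 without dox and -0.05 under it.

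**Figure D4:**
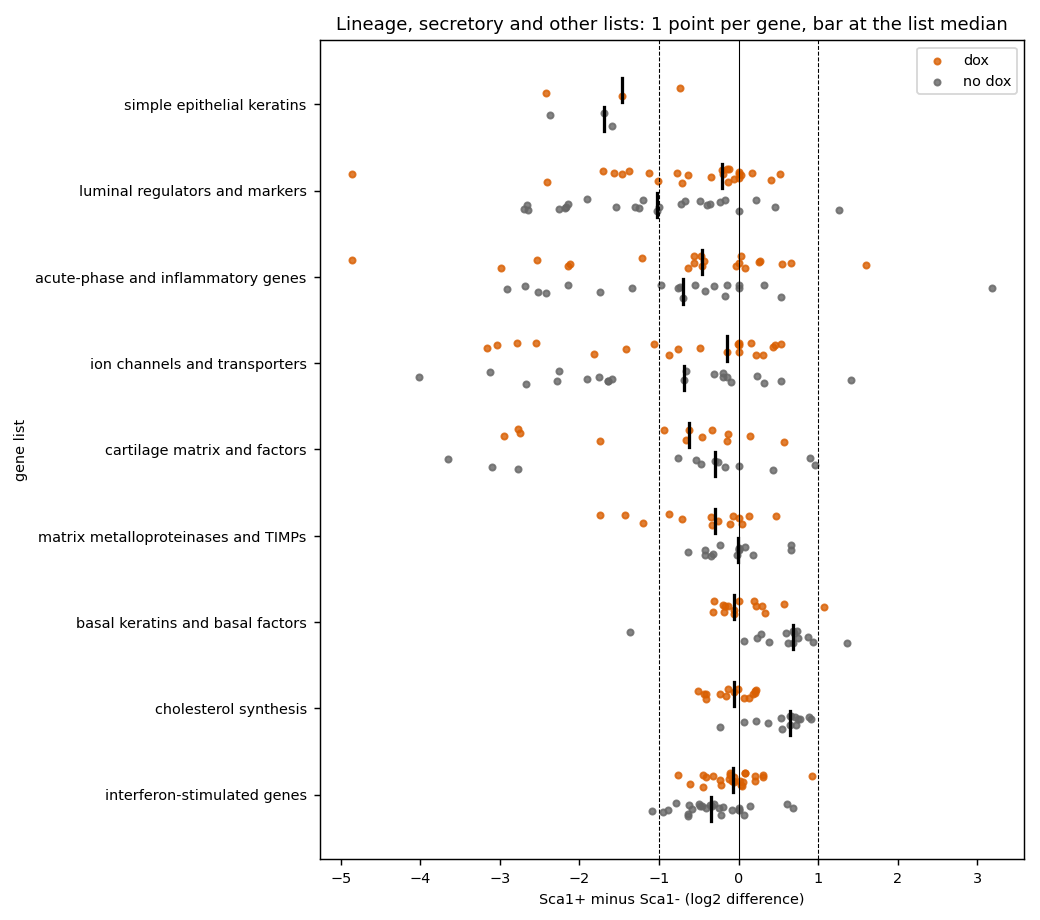
Each point is 1 analysed gene, placed by its Sca1+ minus Sca1- log2 difference under dox (orange) or without it (grey), with a black bar at the list median. Simple keratins lie below 0 in both pairs, the luminal median moves from -1.02 to -0.21 and the cholesterol synthesis median from 0.65 to -0.05.

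Bcl11b differed little between the dox-treated fractions on its brightest probe set. That probe set read 12.11 in Sca1+ and 11.99 in Sca1- cells under dox and 6.87 and 6.29 without it, 1.09-fold and 1.49-fold higher. Both dox arrays were far above both untreated ones. Its other probe sets did not share this. The second brightest probe set of Bcl11b was at the floor in Sca1+ cells under dox and at 5.38 in Sca1- cells, and read 7.52 and 6.21 without dox. Bcl11a, the related factor, read 4.96 and 6.12 under dox and 6.67 and 7.01 without it, 2.25-fold lower in Sca1+ cells under dox. Other Bcl11a probe sets above the floor on all arrays were 1.31-fold and 1.57-fold lower under dox.

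The counts of some other lists were as follows, where 5.5% of all genes passed in either direction. Of 26 interferon-stimulated genes 0 passed in either direction, with a median of -0.07, and of 18 integrin and laminin genes 0 passed. Of 12 Notch pathway genes 0 passed under dox, with a median of -0.42. The Wnt list had 1 higher and 2 lower of 27, and the BMP and TGF-beta list 1 higher, Sostdc1, and 3 lower of 23.

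In quality measures the untreated Sca1+ array stood somewhat apart. It had 48.0% of the 45101 probe sets at the floor, and the other arrays between 44.8% and 45.4%. The median over all probe sets was 3.48 on that array and between 3.67 and 3.70 on the others. The actin control's 3' minus 5' log2 difference ran from 0.69 to 0.91 over the arrays. Levels of the dox pair correlated with r of 0.97 across genes. Epithelial genes were present, with 0 of 14 epithelial identity genes at the floor on both dox arrays, and Cdh1, the epithelial cadherin, read 11.26 and 11.47. Of that list 4 of 14 were lower in Sca1+ cells under dox (2.98% over all genes) and 5 without it (3.33%). Markers of other cells with a probe set were counted where both dox arrays were at the floor. These were 6 of 8 T cell genes, 5 of 10 leukocyte genes including Ptprc and 4 of 10 fibroblast genes including Col1a1. The same held for 5 of 8 endothelial genes and 4 of 4 adipocyte genes. Of all probe sets 44.8% were at the floor on the dox-treated Sca1+ array and 45.4% on the Sca1- one. The leukocyte and fibroblast counts lie near those shares and say little about such cells. Cd68, a leukocyte gene, read 6.16 in both fractions under dox and 3.37 and 3.76 without it. Dcn, a fibroblast proteoglycan gene, read 9.41 in Sca1+ and 8.42 in Sca1- cells under dox and was at the floor on both arrays without it. None of these other-cell lists had a member called 2-fold under dox, and their part in the results was not tested. Scaling each array to the median of all probe sets shifted the untreated median of all genes from -0.01 to 0.21. It left 77 mitotic genes higher under dox, but the higher share of the remaining differences went from 55.0% to 65.8%, of the appearing ones from 24.4% to 13.8% and of the vanished ones from 43.5% to 73.7%.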

How the data were processed

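RNA from 4 sorted fractions was measured on 4 Affymetrix arrays, 1 array a group, read with the 3' IVT Express labelling kit per the labels' protocols. The deposited values are the authors' log2 levels for 45101 probe sets, with a floor at log2 of 10. Software, summarization and scaling, not given in the sources used here, could change every level, and the values were used as deposited.

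Probe sets were named through the platform annotation, in which 34958 had 1 gene symbol, 932 several and 9211 none. Each of 18194 genes was read from its brightest probe set, by the mean of all 4 arrays. Genes were analysed (12264) if at least 1 array reached the pooled median of all probe sets. The Sca1+ minus Sca1- log2 difference was taken within each pair of arrays and called at 1 or more, and a difference under 0.5 in the other pair defined appearing and vanishing genes. With 1 array a group no test could be run, no SD exists, and the number of arrays limits the precision. Differences with 1 array at the floor are lower bounds, and no fold is given where both were.

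The 43 gene lists, like the comparison itself, were chosen with earlier results of these data known. Named genes were, for each class and direction, the 6 ranked first among genes above the floor on all arrays and reaching 100 on 1 array (by the smaller of both differences for remaining genes, the dox difference for appearing and the untreated one for vanished genes), the 4 at-least differences with the highest other array, and up to 4 members of each list with the largest dox difference. Bcl11b and Bcl11a were always named. List members beyond these 4 were named to describe their role or lack of difference, after their values were seen. Promoter windows came from RefSeq on GRCm38.p6 and were searched over the 250 bases before the start. The calling rules were tested on simulated data. Python 3.11.15, pandas 2.3.3, numpy 2.4.6 and matplotlib 3.10.9 were used. The alternatives were other centrings, quantile normalization, a higher floor, other filters, the mean of probe sets and other size rules.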

Additional observations from a re-analysis of the deposited data

Results flagged for a closer look

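In 5 genes the fractions differed at least 2-fold in one direction under dox and at least 2-fold in the opposite direction without it, with 1 array a side, and this difference between the pairs was not tested. The difference under dox minus the one without it was -2.46 on the log2 scale for Gas1, -2.65 for Gfra3, -2.24 for Nfatc1, -2.63 for Pnmt and 2.13 for Sry. Gas1 read 5.27 in Sca1+ and 6.31 in Sca1- cells under dox and 9.87 and 8.45 without it. Nfatc1 read 3.71 and 4.72 under dox, near the floor of 3.32, and 6.98 and 5.75 without it. Under another scaling the dox difference was as small as -0.97 in Gas1 and in Nfatc1, and the untreated one -0.81 in Sry. These 3 genes then fell under 2-fold in 1 pair, while Gfra3 and Pnmt did not. Gfra3, Pnmt and Sry each had at least 1 array at the floor, so their values are bounds.

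Probe sets without 1 named gene lay outside the gene comparison. Of 3636 such probe sets that passed the same filter, 43 were at least 2-fold higher in Sca1+ cells under dox and 63 lower, and 21 differed the same way without dox, 12 higher and 9 lower.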

How the results depend on the processing

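With each array centred on the median of all probe sets, 30 differences appeared higher, 246 vanished from the higher genes and 88 from the lower ones. A floor at a linear level of 32 gave 185 higher and 175 lower genes under dox, 58 remaining lower, 17 appearing higher, 71 appearing lower, 56 vanished higher and 66 vanished lower. A highest array of 100 or more gave 196 and 236 under dox, 17 and 94 appearing, and 54 and 53 vanished. The mean of probe sets gave 232 lower genes under dox, 71 remaining lower, 33 appearing higher and 99 appearing lower. A 1.5-fold size rule gave 845 and 1102 under dox, 358 and 347 remaining, 156 and 378 appearing, and 331 and 360 vanished, higher and lower in turn. A 3-fold rule gave 143 and 85, 18 and 36, 20 and 37, and 32 and 59. The cause was not tested, except that the floor, the filter and the size rules change which genes can be counted. The other 44 counts over these alternatives, quantile normalization included, stayed within 1.5 times those reported. Of 691 list and named genes, 63 changed the sign of their dox difference under another scaling, and the largest of these differences was 0.10 in size as reported.

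The count of mitotic genes higher under dox was 77 under each centring and quantile normalization, between 72 and 77 under the other floor and filters, and 73 with the mean of probe sets. Luminal genes lower under dox numbered 4 with the mean of probe sets. Signal over background limits dim genes, of which 10.1% passed the size rule below a mean linear level of 32. No paired analysis was possible because each group had 1 array and the labels give no shared replicate numbers beyond it.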
